A study of Mus musculus with 4 samples.

Results

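The genes described here are 9 recoding substrates of the RNA-editing enzyme ADAR2 that lie outside the ligand-gated and voltage-gated ion channels: Flna, Cyfip2, Blcap, Copa, Cog3, Igfbp7, Cadps, Nova1 and Unc80. They were chosen by name, and each was read by 1 transcript cluster, a set of probes for 1 transcribed locus, so that 9 of the 33793 clusters tested belong to them. Transcript levels were measured on Affymetrix arrays hybridised with RNA from whole brains of adult female 129SV mice aged 5.5 months. The 2 wild-type arrays came from Gria2 R/R; AdarB1 +/+ mice and the 2 knockout arrays from Gria2 R/R; AdarB1 -/- mice, with AdarB1 (here Adarb1) the gene for ADAR2. All of the mice therefore carried the Gria2 R/R allele, which encodes the edited form of the glutamate receptor subunit GluA2 and keeps mice without ADAR2 alive, and no mice with an unaltered Gria2 gene were in the comparison. The mice were sibling offspring, the knockout was constitutive, and 2 arrays a group limit the precision of every value.

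ADAR2 binds double-stranded stretches of RNA and deaminates adenosines there to inosine. Ribosomes read inosine as guanosine, so that editing within a coding sequence can change the encoded amino acid. In brain it is best known for the glutamate receptors, but it also recodes messages for cytoskeletal, secretory and RNA-binding proteins. Coordinates below are the spans of the clusters as deposited, with no build named; each overlapped its gene in RefSeq GRCm38.p6. The probes measure how much of a transcript is present and do not read the edited base, so the values below are transcript levels and say nothing of the editing of each site. In whole brain, fewer cells of a type and less RNA per cell cannot be told apart.

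Adarb1 was checked first. Its log2 signal was 10.50 and 10.45 in the wild-type arrays and 9.16 and 8.96 in the knockout arrays. Both knockout arrays were far below both wild-type arrays, with a log2 difference, knockout minus wild type throughout, of -1.42 (SE 0.12), or 2.67-fold lower (limma, adjusted p = 0.409), and it passed the unadjusted threshold used below. The signal in the knockout arrays stayed above the array median, and the deposited values do not separate probes in the deleted part of the gene from the others.

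The libraries were alike over all clusters, with array medians of 6.03 to 6.09 on the log2 scale and Pearson's r of 0.993 to 0.9946 for any pair of arrays. Defining markers of neurons, astrocytes, oligodendrocytes and microglia were all measured. Tissue markers outside the brain parenchyma were uneven: the summed signal of the salivary gland markers was 12.92 (log2) in knockout array 1 against 7.92 to 8.09 in the others, and that of the pituitary markers was 11.21 and 10.43 in the knockout arrays against 8.64 and 8.21. The salivary sum rested chiefly on Bpifa2 and Dcpp1, at 12.61 and 10.20 in knockout array 1. The median salivary marker there was 5.03, against 5.04 to 5.18 in the others. The pituitary sums rested mainly on Prl and Gh, with log2 differences of 4.12 and 3.17. Those of the other pituitary clusters ran from 0.01 (Tshb) to 0.51 (Pomc). The olfactory bulb markers were lowest in knockout array 2, at 10.97 against 11.29 to 11.50. The part of these differences in the values below was not tested, and values without each array are given where they matter.

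Among the 9 substrates, Cyfip2 had the largest difference and was 1.25-fold lower in the knockout brains. No member passed the adjusted threshold, nor did any cluster of the array: with limma and Benjamini-Hochberg adjustment over all 33793 clusters, 0% had an adjusted p below 0.05. At an unadjusted p below 0.05, 1 of 9 members (11.1%) passed, against 2009 clusters, or 5.95%, over the whole array. That member was lower in the knockout, as were 2.31% of all clusters at this threshold. Of the 9 members, 6 had a lower and 3 a higher mean in the knockout, and their median log2 difference was -0.065, against 0.005 over all clusters. With 2 arrays against 2, an exact two-sided permutation test of a single gene cannot give a p below 0.333, so each test rests on the spread that limma shares across clusters. Each p-value sets the difference between the groups against the spread between arrays of a group, combined with that shared spread.

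**Figure D1:**
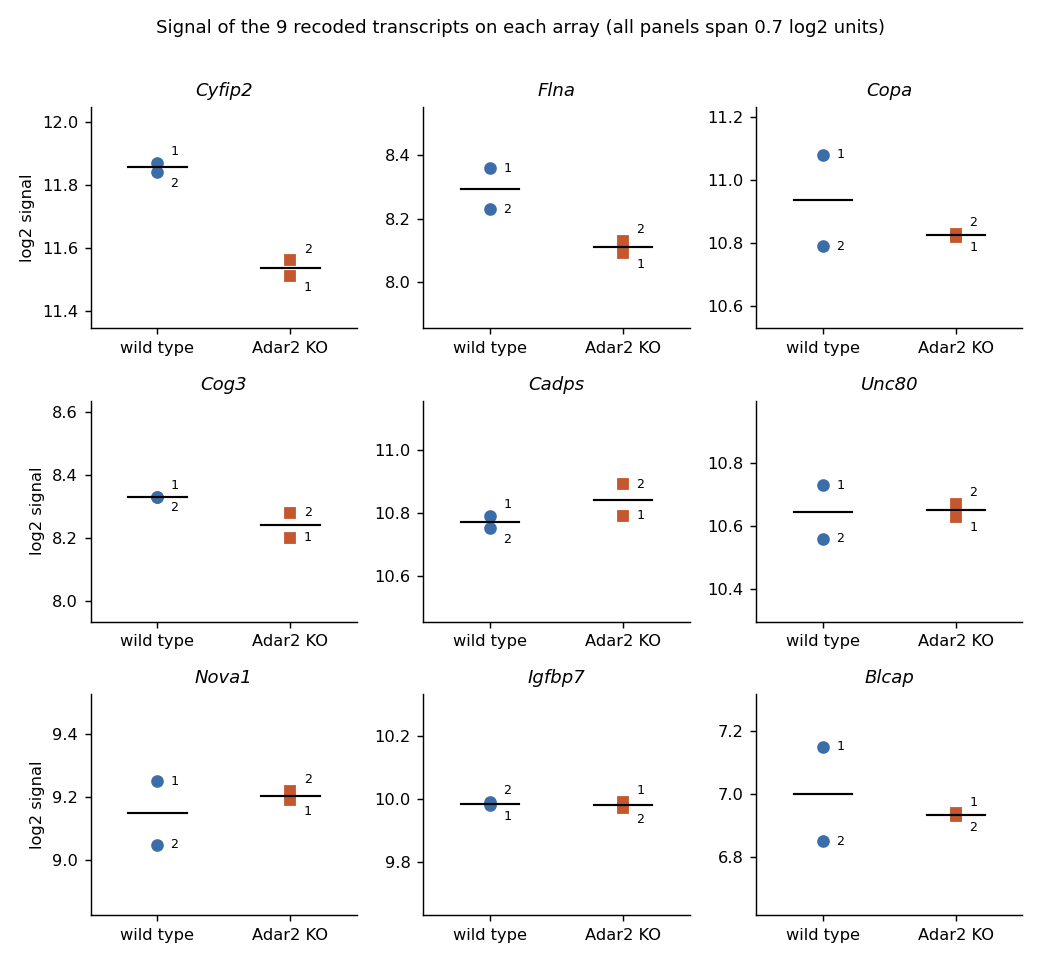
Log2 signal of the 9 substrates in each array, 1 panel per gene, with wild-type and knockout arrays as points and the group means as bars; all panels span the same height in log2 units. The 2 knockout arrays lie below the 2 wild-type arrays for Cyfip2, Flna and Cog3, and the groups overlap for the other 6 genes.

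Both actin regulators among the members were lower in both knockout arrays. CYFIP2 is a subunit of the WAVE regulatory complex, which drives branched actin assembly, and binds the fragile X protein FMRP; ADAR2 recodes a lysine to glutamate in it. Cyfip2 signal (chr11:46193849-46312859, minus strand) was 11.87 and 11.84 in the wild-type arrays and 11.51 and 11.56 in the knockout arrays. The groups did not overlap, and the gap between them was several times the gap between arrays of a group. The log2 difference was -0.32 (SE 0.10, 95% interval -0.57 to -0.068) and passed the unadjusted threshold, with a limma adjusted p of 0.834. Over all clusters, 2.38% had a p as low, and 2.8% were lower in the knockout by as much. The direction held with every array left out in turn, but the unadjusted threshold was missed in 3 of these 4 cases. The log2 difference was -0.30 without wild-type array 1, -0.34 without wild-type array 2 and -0.29 without knockout array 1, none of which passed, and -0.34 without knockout array 2, which did.

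FLNA, or filamin A, cross-links actin filaments and carries a glutamine-to-arginine recoding site near its C-terminus. Flna signal (chrX:74223461-74249820, minus strand) was 8.36 and 8.23 in wild type and 8.09 and 8.13 in the knockout. The knockout arrays were again the lower pair, but the wild-type arrays lay further apart than for Cyfip2. The log2 difference of -0.18 (SE 0.11, 95% interval -0.45 to 0.083) did not pass the unadjusted threshold (limma, adjusted p = 0.854).

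Of the genes known to work with these proteins, none of the WAVE complex and FMRP partners passed the unadjusted threshold. The 13 measured genes of that list spanned log2 differences of -0.19 to 0.19, with a median of -0.06, 8 lower and 5 higher. Cyfip1, the closest relative of Cyfip2, had signals of 9.04 and 8.80 in wild type and 8.71 and 8.75 in the knockout, a log2 difference of -0.19 (limma, adjusted p = 0.861). Its knockout arrays were also the lower pair, by less than the interval of the difference (-0.49 to 0.11) could separate from 0. The Cyfip1 difference was -0.07 without wild-type array 1 and -0.31 without wild-type array 2. Flnc, the muscle relative of Flna, had signals of 6.62 and 6.87 in wild type and 6.83 and 6.85 in the knockout, so its groups overlapped (log2 difference 0.10, limma adjusted p = 0.937).

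The 3 substrates of the secretory pathway were close to level. COPA is the alpha subunit of the COPI coat, which returns vesicles from the Golgi to the endoplasmic reticulum, and is recoded from isoleucine to valine. Copa signal (chr1:172082529-172122332, plus strand) was 11.08 and 10.79 in wild type and 10.82 and 10.83 in the knockout. The high value was wild-type array 1 alone, and the other 3 arrays lay within 0.04 of each other. The log2 difference was -0.11 (SE 0.13, limma adjusted p = 0.929) and became 0.035 without wild-type array 1.

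COG3 belongs to the conserved oligomeric Golgi complex, a tether for vesicles within the Golgi, and is also recoded from isoleucine to valine. Cog3 signal (chr14:75702351-75754493, minus strand) was 8.33 in both wild-type arrays and 8.20 and 8.28 in the knockout arrays. The groups did not overlap, but the log2 difference of -0.09 (SE 0.10, limma adjusted p = 0.925) was under its standard error. CADPS primes dense-core vesicles for regulated release and is recoded from glutamate to glycine. Cadps signal (chr14:12372563-12823079, minus strand) was 10.79 and 10.75 in wild type and 10.79 and 10.89 in the knockout, with the highest value in knockout array 2 and the groups touching at 10.79 (log2 difference 0.07, SE 0.11, limma adjusted p = 0.949).

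The partners of these proteins had small differences as well. Of 14 COPI clusters, 11 were lower and 3 higher (median -0.08), and 1 passed the unadjusted threshold, for Copz1, the zeta subunit of the coat. Copz1 signal was 10.65 and 10.90 in wild type and 10.44 and 10.42 in the knockout, a log2 difference of -0.34 (SE 0.12, limma adjusted p = 0.834). It missed the unadjusted threshold without wild-type array 2 (-0.22), knockout array 1 (-0.35) or knockout array 2 (-0.34), and a second cluster named Copz1 had a log2 difference of -0.10. Of 8 COG clusters 6 were lower (median -0.03), and of 17 clusters for vesicle priming 13 were lower (median -0.04), with none past the unadjusted threshold. The largest differences there were -0.19 for Cog4, another COG subunit, and -0.17 for Doc2a, a calcium sensor of vesicle release. Cadps2, the paralogue of Cadps, had signals of 9.0 and 8.90 in wild type and 8.88 and 8.99 in the knockout, and its groups overlapped (log2 difference -0.015, limma adjusted p = 0.989).

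**Figure D2:**
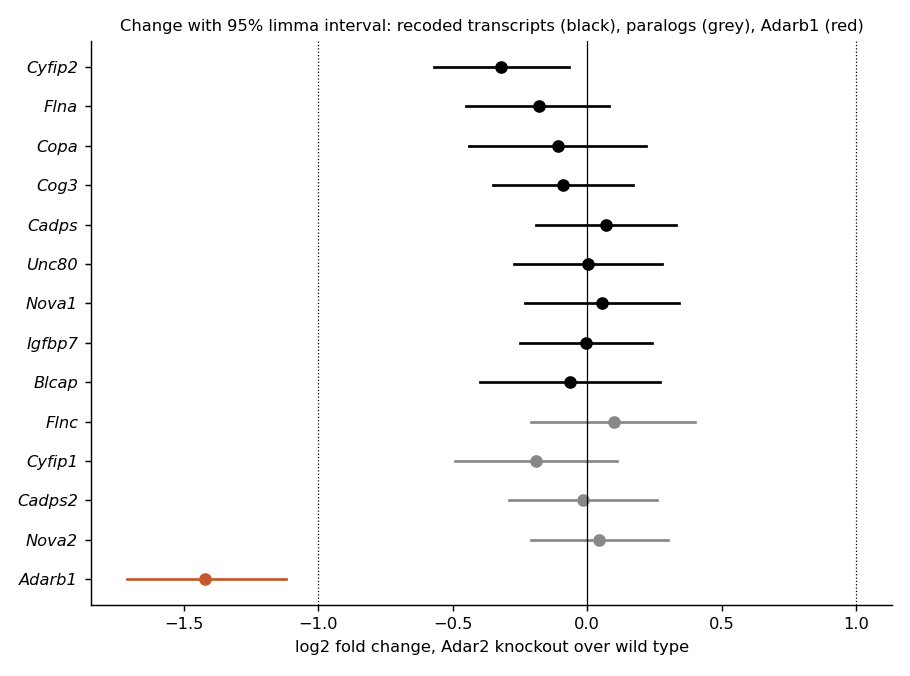
Log2 difference, knockout minus wild type, of each of the 9 substrates (black), of the paralogues Flnc, Cyfip1, Cadps2 and Nova2 (grey) and of Adarb1 (red), as a point with its 95% limma interval as a bar; dotted lines mark a 2-fold change. Among the 9 substrates, the Cyfip2 interval, -0.57 to -0.068, is the 1 that does not reach 0, and every interval of the 9 substrates lies within -0.57 to 0.34.

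Igfbp7 was the steadiest member. IGFBP7 is a secreted protein related to the binding proteins of insulin-like growth factors, is found in vessel walls, and has recoding sites in its N-terminal part. Igfbp7 signal (chr5:77349240-77408045, minus strand) was 9.98 and 9.99 in wild type and 9.99 and 9.97 in the knockout. The 4 arrays spanned 0.02, a range as small as that of 61 clusters (0.181%) of the array, and the log2 difference was -0.005 (95% interval -0.25 to 0.24, limma adjusted p = 0.993). Summed endothelial markers were 9.95 and 9.79 in wild type and 10.01 and 9.89 in the knockout, and mural markers 10.99 and 10.98 against 11.04 and 10.91. Both marker sums overlapped between the groups. Of the 6 endothelial markers, 1 passed the unadjusted threshold, Slco1a4, a transporter of brain vessels, at 7.20 and 6.99 in wild type and 7.55 and 7.44 in the knockout (log2 difference 0.40), and none of the 6 mural markers did. The part of these markers in the Igfbp7 value was not tested. Of 12 clusters of the insulin-like growth factor axis, 7 were lower and 5 higher (median -0.02), and none passed the unadjusted threshold. The binding protein genes Igfbp3 and Igfbp4 each had a log2 difference of 0.10, and Igfbpl1, which had the largest of the list, one of -0.17.

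BLCAP is a small protein, first described in bladder cancer, whose message carries several recoding sites near its start. Blcap signal was 7.15 and 6.85 in wild type and 6.94 and 6.93 in the knockout. As for Copa, wild-type array 1 was high and the knockout arrays were 0.01 apart, so the knockout pair lay between the wild-type arrays. The log2 difference of -0.065 (SE 0.13, limma adjusted p = 0.966) became 0.085 without wild-type array 1. The Blcap cluster lies at chr2:157556362-157571274 on the minus strand, and the imprinted gene Nnat lies inside that span on the plus strand. Nnat signal was 11.25 and 11.12 in wild type and 11.25 and 10.89 in the knockout, with overlap and the lowest value in knockout array 2 (log2 difference -0.12, limma adjusted p = 0.937). Of 10 clusters of neighbouring genes, 8 were lower, 1 was level and 1 higher (median -0.12), and none passed the unadjusted threshold. Manbal had the largest difference, -0.21, with knockout array 1 at 9.40 against 9.75 to 9.94 in the others, and a second Nnat cluster, on the minus strand, was the 1 that was higher (0.15).

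Neither Nova1 nor Unc80 differed beyond the spread of the wild-type arrays. NOVA1 is a neuronal RNA-binding protein that regulates alternative splicing and is recoded from serine to glycine. Nova1 signal (chr12:46694517-46818775, minus strand) was 9.25 and 9.05 in wild type and 9.19 and 9.22 in the knockout, the knockout pair lying between the wild-type arrays (log2 difference 0.055, SE 0.12, limma adjusted p = 0.966). Nova2, its paralogue, had signals of 9.06 and 9.0 in wild type and 9.05 and 9.10 in the knockout, which overlapped (log2 difference 0.045, limma adjusted p = 0.97). Over 20 clusters for neuronal splicing regulators, 10 were lower and 10 higher, the median was -0.01, and none passed the unadjusted threshold. The largest difference was 0.20, for a dim cluster of Celf2, and a second, minus-strand Nova2 cluster differed by 0.17.

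UNC80 is a scaffold of the sodium leak channel NALCN and is also recoded from serine to glycine. Unc80 signal (chr1:66468367-66699866, plus strand) was 10.73 and 10.56 in wild type and 10.63 and 10.67 in the knockout. The knockout pair lay between the wild-type arrays, with a log2 difference of 0.005 (SE 0.11, limma adjusted p = 0.993). The channel itself, Nalcn, had signals of 9.22 and 9.34 in wild type and 9.17 and 9.37 in the knockout (log2 difference -0.01, limma adjusted p = 0.992). Unc79, the other large scaffold, differed by -0.025 (limma adjusted p = 0.983). Fam155a, a further subunit of the channel complex, had signals of 9.86 and 9.74 in wild type and 9.56 and 9.53 in the knockout. Those groups did not overlap, and the log2 difference of -0.26 (95% interval -0.52 to 0.0094) just missed the unadjusted threshold (limma adjusted p = 0.834). The list for this complex also held a receptor gene, Tacr1 (-0.20), and a kinase gene, Src (-0.005), which are not subunits of the channel. All 5 measured genes of that list had a lower mean in the knockout (median -0.025), and none passed the unadjusted threshold. That direction and that count depended on the processing: the median was 0.013 after quantile and 0.023 after cyclic loess scaling, and Fam155a passed the unadjusted threshold with median centring (-0.29), among clusters above the median signal (-0.26) and with an intensity trend in the variance (-0.26).

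**Figure D3:**
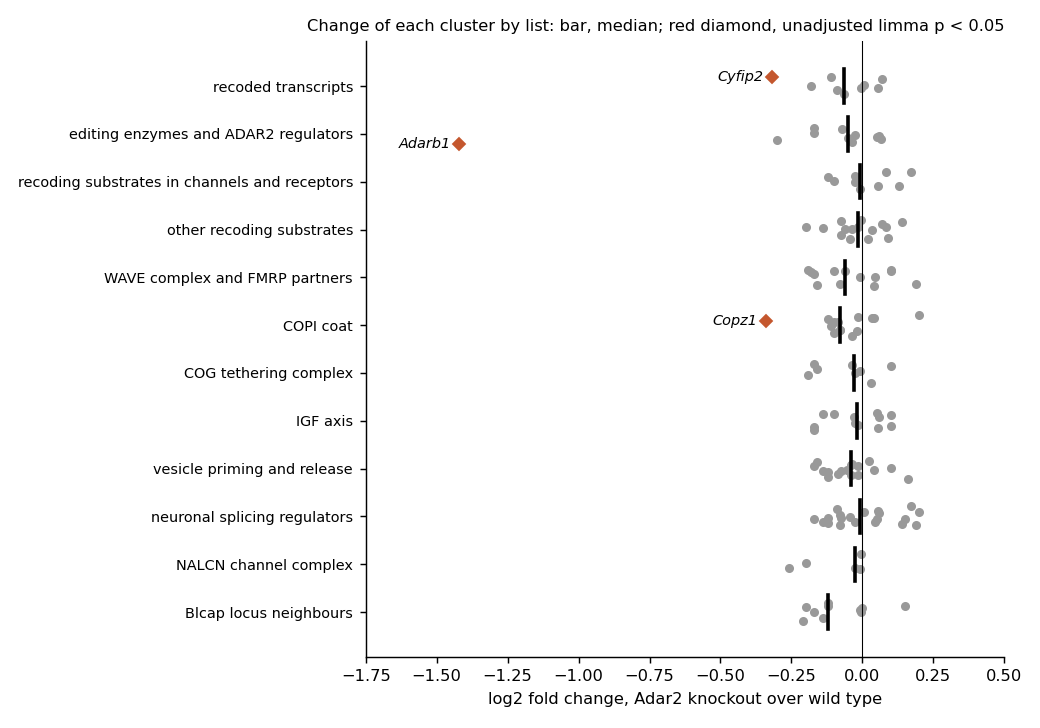
Log2 difference, knockout minus wild type, of every cluster of the 9 substrates (top row), of their partner genes and of other recoding substrates; each point is a cluster, bars are list medians and red diamonds mark an unadjusted limma p below 0.05. The list medians lie between -0.12 and -0.01, and the marked genes are Adarb1, Cyfip2 and Copz1.

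Set side by side, the members differed in how their arrays were ordered. Both knockout arrays were below both wild-type arrays for 3 of 9 members (Cyfip2, Flna and Cog3), against 16.5% of all clusters, and above them for 0 of 9, against 17.7%. The gap between the wild-type arrays was larger than that between the knockout arrays for 5 of 9 members, with medians of 0.13 and 0.04, whereas over all clusters both medians were 0.13. For Copa, Blcap, Nova1 and Unc80, wild-type array 1 was above wild-type array 2 by 0.17 to 0.30, which exceeded the difference between the groups.

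The intervals limit how large a difference in transcript level could have been missed. All 8 members that did not pass the unadjusted threshold had intervals within -0.45 to 0.34, and a 2-fold change, which is 1 on the log2 scale, lay outside every interval. Adjusted p-values of the members ran from 0.834 to 0.993. Each member was read by 19 to 61 probes that matched 1 site, and its signal was above the median of all clusters.

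Outside the 9 members, no other listed recoding substrate and no editing enzyme but Adarb1 passed the unadjusted threshold. The lists of recoding substrates were not restricted to those of ADAR2. Among 9 clusters for edited channels and receptors, log2 differences ran from -0.12 to 0.17 with a median of -0.01, and among 15 clusters for further recoding substrates from -0.20 to 0.14 with a median of -0.015. The largest differences in these lists were 0.17 for the kainate receptor gene Grik1 and -0.20 for Tmem63b. Adar, which encodes ADAR1, the other active editing enzyme, had signals of 9.27 and 9.45 in wild type and 9.37 and 9.21 in the knockout, and its groups overlapped (log2 difference -0.07, limma adjusted p = 0.958). Adarb2, a brain relative of ADAR2 without known activity, had signals of 8.06 and 8.07 in wild type and 7.91 and 7.87 in the knockout (log2 difference -0.17, limma adjusted p = 0.854). Of the 11 clusters for editing enzymes and regulators of ADAR2, 8 were lower and 3 higher, and Adarb1 alone passed the unadjusted threshold.

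Neuronal markers, which bear on the neuronal members, were lower in the knockout for 6 of 6 genes, by a median of -0.033, and none passed the unadjusted threshold. Their summed signal was 14.34 and 14.31 in wild type and 14.24 and 14.26 in the knockout. Microglial markers were lower for 4 of 4 genes, by a median of -0.14, with summed signals of 10.17 and 10.18 in wild type and lower sums in both knockout arrays, the lowest of them 9.98. Oligodendrocyte markers were lower for 4 of 4 genes, 1 of which passed the unadjusted threshold, and their summed signals, 13.50 and 13.66 in wild type and 13.51 and 13.54 in the knockout, overlapped. Astrocyte markers were lower for 2 of 4 genes (median -0.06), with summed signals of 11.77 and 11.78 in wild type and 11.69 and 11.75 in the knockout. Median log2 differences were 0.048 for endothelial, 0.00 for mural and 0.06 for meningeal fibroblast markers. The part of these markers in the values of Cyfip2 and Flna was not tested.

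**Figure D4:**
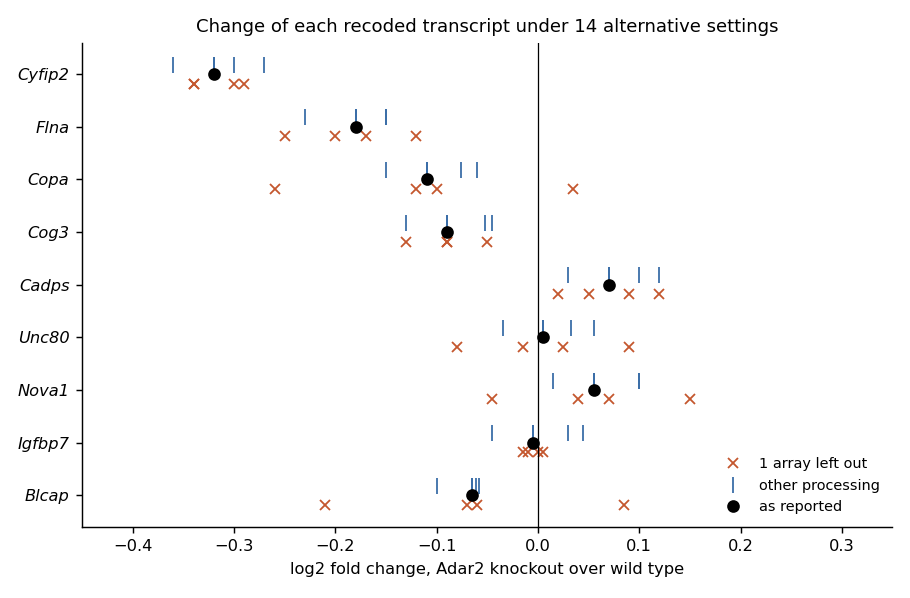
Log2 difference, knockout minus wild type, of the 9 substrates under each of the 14 alternative treatments of the data as points, with the reported value marked. Cyfip2 stays between -0.36 and -0.27 and Flna between -0.25 and -0.12, while Copa, Blcap, Igfbp7, Nova1 and Unc80 fall on either side of 0.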

How the data were processed

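The authors scanned 4 arrays and summarised the probes with RMA in Affymetrix Expression Console, and deposited 1 table of log2 signals per transcript cluster; the genome build is not given in the sources used here. Further columns of that table hold the authors' own group comparisons and were not used. Arrays were assigned to groups through the labels. All deposited log2 values entered 1 linear model of knockout against wild type, without further scaling or filter (limma 3.58.1, run under R 4.3.3), followed by empirical Bayes moderation and Benjamini-Hochberg adjustment over 33793 clusters and a threshold of 0.05. Same-numbered arrays did not deviate together (r = 0.0516 over 2 pairs), so no block was used. The code was tested on simulated data. Coordinates are those of the deposited table; 9 of 9 members overlapped their gene in RefSeq GRCm38.p6. Named genes were the 9 members, their paralogues and closest partners, and in each other list any gene with an unadjusted p below 0.05 or, where none, the one with the largest difference. The members and lists were chosen with earlier results of these data known. No sequence is shown, since none bearing on the recoding sites was used here. The 14 alternatives covered scaling, signal and probe filters, the variance model, a replicate block and leaving out each array. Of the lists, 1 of partner genes is not reported here.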

Additional observations from a re-analysis of the deposited data

How the results depend on the processing

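Over the alternatives other than leaving out an array, 87 of 90 member values kept their direction and side of the unadjusted threshold, and those that turned were Igfbp7, at 0.03 after quantile and 0.044 after cyclic loess scaling, and Unc80, at -0.035 with median centring. The same 2 scalings, in that order, turned Cadps2 to 0.016 and 0.03, Nalcn to 0.03 and 0.037, and Unc79 to 0.013 and 0.023. Leaving out each array gave ranges of -0.21 to 0.085 for Blcap, -0.26 to 0.035 for Copa, -0.015 to 0.005 for Igfbp7, -0.045 to 0.15 for Nova1, -0.08 to 0.09 for Unc80, -0.16 to 0.02 for Adar, -0.03 to 0.22 for Flnc, -0.045 to 0.26 for Igfbp3, -0.03 to 0.23 for Igfbp4, -0.07 to 0.04 for Cadps2, -0.11 to 0.09 for Nalcn, -0.45 to 0.025 for Manbal and -0.29 to 0.065 for Nnat. The direction held but the value moved by over 1.5 times for Cadps (0.02 to 0.12), Flna (-0.25 to -0.12), Cog3 (-0.13 to -0.05), Cyfip1 (-0.31 to -0.07), Cog4 (-0.29 to -0.09), Doc2a (-0.24 to -0.10), Igfbpl1 (-0.30 to -0.045), Grik1 (0.09 to 0.25), Celf2 (0.07 to 0.33) and both Nova2 clusters (0.015 to 0.075 and 0.07 to 0.27). Leaving out an array gave 0 to 1 members at an unadjusted p below 0.05 and a members' median of -0.09 to 0.035, which was -0.10 with median centring. Over all clusters, the count at an unadjusted p below 0.05 was 1221 (without wild-type array 1) to 1801 when an array was left out and 989 among clusters above the median signal, where fewer were tested. The count lower in the knockout was 497 (without wild-type array 1) to 748 with an array left out and 1229 with median centring. An ordinary t-test of each cluster, with its variance pooled over the groups and not shrunk, gave 15 clusters at an adjusted p below 0.05. The other 13 alternatives gave 0. The t-test was set to a p of 0 wherever the arrays within each group had equal values and the groups differed. Copg2 was such a cluster, with 9.87 in both wild-type arrays and 9.79 in both knockout arrays. How many of the 15 were of this kind was not tested. Among the partner and substrate lists, the number past the unadjusted threshold went from 0 to 1 for the NALCN complex in 4 alternatives (median centring, clusters above the median signal, an intensity trend and the pooled variance), for further recoding substrates in 2 (the trend, where it was Tmem63b, and the pooled variance), for splicing regulators in 2 (without knockout array 1, where it was Celf2, and the pooled variance) and for the neighbours of Blcap in 1 (the pooled variance). It went from 1 to 2 for editing enzymes without knockout array 1 and with the pooled variance, and from 1 to 0 for the COPI coat in 5 (cyclic loess, the replicate block and without wild-type array 2, knockout array 1 or knockout array 2). Why these values moved was not tested.

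With the replicate number as a block, Cyfip2 kept -0.32 and its side of the unadjusted threshold, and Copz1 kept -0.34 but no longer passed; the members' count stayed at 1 and that of all clusters was 1693. The number of arrays, 2 a group, limits the precision, and the standard errors of the members, 0.10 to 0.13, could not separate log2 differences of that size from 0.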

Other observations

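Some members shared their course over the 4 arrays, as a description over 4 points from the same libraries. Pearson's r between log2 signals was 0.979 for Blcap and Copa, both highest in wild-type array 1, 0.944 for Nova1 and Unc80, and 0.924 for Flna and Cyfip2, both lower in the knockout. Matches were sought among 5270 clusters with 1 gene symbol, a mean signal above the median and a range over arrays of at least 0.3. Of these, 68 (for Nova1) to 240 (for Flna) had r of 0.95 or more with a member. A close match over 4 arrays is therefore common. The cluster most like Cyfip2 was Gm20342 (r = 0.9997), with signals of 8.10 and 8.03 in wild type and 7.39 and 7.47 in the knockout, and the cluster most like Flna was Zfp11 (r = 0.9998).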
